A study of Mus musculus with 6 samples.

Results

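Zinc, iron and copper are trace metals that cells need for enzymes, respiration and DNA-binding proteins, and that are toxic in excess. Cells therefore hold them in balance with importers, exporters, storage proteins and sensors. A set of 32 genes of this system was followed in cultured mouse male germline stem cells, cells of the testis that renew themselves and sustain sperm production. It comprised 14 Slc39a genes, 10 Slc30a genes and 8 other metal genes. The set was chosen by gene family and metal with the log2 fold changes and adjusted p-values of this comparison in view, so that its fold changes and calls are a description and support nothing beyond themselves. Of the 32 genes, 29 had a row among the 22432 genes of the authors' deposited table. Slc39a4, Slc39a12 and Slc30a8 had none and were not analysed here.

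Total RNA was sequenced from 6 samples sorted by the surface proteins CDH1 (E-cadherin) and THY1, 3 of them CDH1+/THY1+ and 3 CDH1-/THY1+, all from male mice at passage 6 to 8. Each population came from the cultures RP7 (age label 8 weeks), RP5 (19 days) and WT1 (5 weeks). The strain was given as OCT4/GFP; Dox-OCT4 for RP7 and RP5 and as C57BL/6 for WT1. All cultures grew on DR4 feeder fibroblasts, in a medium that contained transferrin at 100 ug/ml, the serum protein that delivers iron, and, among other supplements, insulin, GDNF, FGF, selenite and a low share of fetal bovine serum.

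All values come from the authors' deposited table, which gives each gene a mean normalised count over all 6 libraries and a log2 fold change with its standard error. A positive value means a higher level in CDH1+/THY1+ than in CDH1-/THY1+ cells. That direction was read from the table's name, and Cdh1 was not analysed here. The direction was not checked in another way. If it were reversed, every sign given below would turn, those of the marker genes included. The table holds no value per sample, so the spread within each population, the depth of each library and the number of samples that show a direction are unknown. Size factors worked out from the spacing of low mean counts ranged from 0.913 to 1.08 over the libraries. A gene is called here when its adjusted p by DESeq2 in the authors' deposited table was under 0.05.

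Germ cell genes were abundant, as Dazl (mean count 14797) and Ddx4 (4419) show in the authors' deposited table, and so were fibroblast genes, as Col3a1 (89729) shows. Of 13 germ cell markers 10 were called lower and 0 higher in CDH1+/THY1+ cells, with a median log2 fold change of -1.53 and Tdrd1 farthest out at -2.22 in the authors' deposited table. Of 12 fibroblast markers 4 were called higher and 0 lower, with a median of 1.02 and S100a4 farthest out among the called at 1.43 in the authors' deposited table, a call lost with Benjamini-Yekutieli adjustment (adjusted p = 0.473). All 3 macrophage markers with a row, of 6 listed, were called higher, Cd68 most at 1.65 in the authors' deposited table. With Benjamini-Yekutieli adjustment only Cd68 among them kept its call (adjusted p = 0.000127). No Sertoli or Leydig cell marker was called among the 4 and 2 with an adjusted p, nor was Klf1, the only erythroid marker of 7 with a row. At an unadjusted p under 0.05 by DESeq2, 9 fibroblast markers were higher and 0 lower, 10 germ cell markers were lower and 0 higher, and 1 Sertoli cell marker and 0 Leydig cell or erythroid markers passed. Of the 22330 genes with a p-value, 4165 were higher and 3842 lower at that threshold. The called share was 76.9% for germ cell and 33.3% for fibroblast markers, against 33.5% of all genes with an adjusted p. Fewer cells of a type and less RNA per cell cannot be told apart in these bulk samples. The part of these shifts in the values of the metal genes was not tested.

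Zinc enters the cytosol through proteins of the Slc39a family (ZIP) and leaves it, to the outside or into organelles, through proteins of the Slc30a family (ZnT). Metallothioneins hold zinc and copper in the cytosol, and the zinc-sensing transcription factor MTF1 switches on metallothionein genes and Slc30a1 through metal response elements in their promoters. Iron bound to transferrin is taken up by the transferrin receptor, and iron regulatory proteins hold iron genes in balance by binding a hairpin, the iron-responsive element, in their transcripts.

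To show the sequences behind these controls, the RefSeq promoters (build GRCm38.p6) of the metallothionein genes Mt1 and Mt2, of Slc30a1 and of Slc30a10, the exporter gene with the lowest fold change, are printed 5′ to 3′ on the gene's strand, from 250 bases before the annotated start to 50 bases from it onward. All 4 genes lie on the plus strand. Capitals mark the core of the metal response element, TGCACNC or TGCGCNC, on either strand. In Slc30a10 a pair of cores on opposite strands overlaps and forms a single run of capitals.
Mt1, chr8:94178839-94179138: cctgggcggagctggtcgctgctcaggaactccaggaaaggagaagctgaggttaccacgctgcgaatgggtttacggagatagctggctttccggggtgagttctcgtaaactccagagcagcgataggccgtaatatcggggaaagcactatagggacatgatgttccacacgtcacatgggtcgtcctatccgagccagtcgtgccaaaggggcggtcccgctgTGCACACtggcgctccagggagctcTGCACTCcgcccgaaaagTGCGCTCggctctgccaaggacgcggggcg
Mt2, chr8:94172368-94172667: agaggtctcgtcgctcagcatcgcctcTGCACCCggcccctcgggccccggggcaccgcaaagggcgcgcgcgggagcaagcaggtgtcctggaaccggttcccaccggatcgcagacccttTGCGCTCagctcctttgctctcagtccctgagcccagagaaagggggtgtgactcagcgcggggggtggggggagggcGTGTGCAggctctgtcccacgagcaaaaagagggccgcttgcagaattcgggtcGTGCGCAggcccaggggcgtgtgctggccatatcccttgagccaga
Slc30a1, chr1:191906531-191906830: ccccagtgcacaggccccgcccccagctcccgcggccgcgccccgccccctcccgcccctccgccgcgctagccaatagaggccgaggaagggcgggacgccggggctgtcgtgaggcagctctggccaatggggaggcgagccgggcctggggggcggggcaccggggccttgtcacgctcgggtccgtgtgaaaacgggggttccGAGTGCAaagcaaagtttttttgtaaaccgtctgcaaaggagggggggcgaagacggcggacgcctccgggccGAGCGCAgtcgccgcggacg
Slc30a10, chr1:185454598-185454897: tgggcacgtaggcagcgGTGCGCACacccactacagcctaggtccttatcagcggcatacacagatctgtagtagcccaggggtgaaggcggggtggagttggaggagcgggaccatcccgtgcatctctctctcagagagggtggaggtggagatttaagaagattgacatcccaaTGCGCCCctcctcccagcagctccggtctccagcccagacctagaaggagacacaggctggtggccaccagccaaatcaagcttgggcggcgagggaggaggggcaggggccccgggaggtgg

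The Mt1 window held 3 cores, all on the gene's strand, and the Mt2 window held 4. The Slc30a1 window held 2 cores and that of Slc30a10 held 3. Among all 32851 RefSeq promoter windows of the same length, 25.7% held at least 1 core, 7.11% at least 2, 1.97% at least 3 and 0.517% at least 4. RefSeq windows were found for 26 of the 32 genes, and 16 of their 32 windows held at least 1 core. Windows with a core belonged to 4 of 6 genes called lower, 1 of 2 called higher and 10 of 17 not called. These last counts are per gene, with a core in any of its windows, and cannot be set against the shares per window. A share per gene over all genes was not worked out, so the counts do not show whether cores are frequent in any of these groups. Mtf1 and Slc31a1 had no core in their windows. A core is a match of letters and not a shown binding site.

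**Figure D1:**
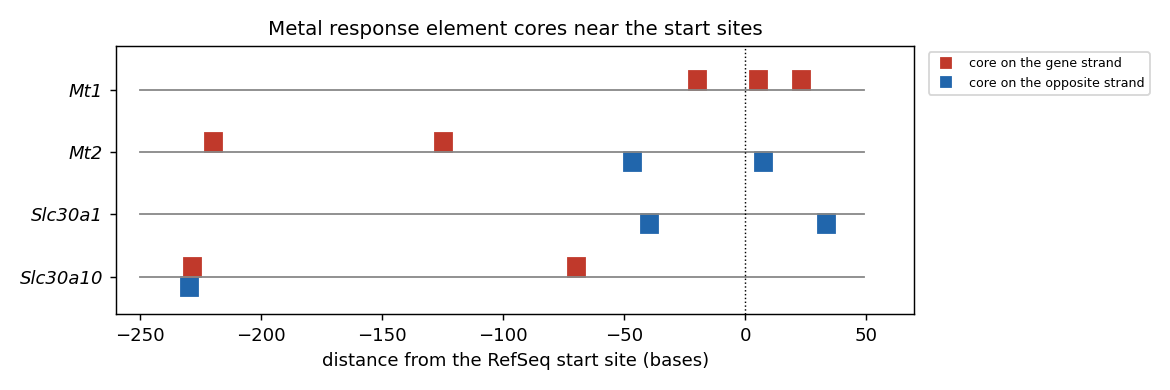
Positions of metal response element cores in the RefSeq promoter windows of 4 genes. The horizontal axis is the distance from the annotated start site in bases, each square marks a 7-base core, and squares above the line lie on the gene's strand and squares below it on the opposite strand. Mt2 carries 4 cores, Mt1 and Slc30a10 3 each and Slc30a1 2.

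Iron-responsive elements were searched in the untranslated regions of GENCODE M21 transcripts (build GRCm38) as a C, then 5 bases, then the 6-base loop CAGTGN with a last letter of A, C or T, then 5 bases that pair with the 5 before the loop (G with T allowed). The transcript's own strand was searched. The pattern was found in 0.109% of 21157 genes upstream and in 0.473% downstream of the coding sequence. Of the 32 metal transport genes it was found in Tfrc and Slc40a1. The pattern is strict and was found in only 6 of 9 genes listed as known carriers of the element. Slc11a2 is on that list and had no match, so a missing match does not show that the element is absent. The sites of these genes and of the ferritin chains Fth1 and Ftl1 are printed 5′ to 3′ on the transcript's strand, with T for U and the loop in capitals.
Tfrc, 3′ untranslated region, chr16:32631219-32631248, plus strand: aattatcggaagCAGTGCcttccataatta
Tfrc, 3′ untranslated region, chr16:32631598-32631627, plus strand: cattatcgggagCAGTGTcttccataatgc
Tfrc, 3′ untranslated region, chr16:32631663-32631692, plus strand: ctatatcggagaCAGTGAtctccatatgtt
Tfrc, 3′ untranslated region, chr16:32631710-32631739, plus strand: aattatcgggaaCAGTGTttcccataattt
Slc40a1, 5′ untranslated region, chr1:45925464-45925493, minus strand: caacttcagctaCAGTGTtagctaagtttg
Fth1, 5′ untranslated region, chr19:9982732-9982761, plus strand: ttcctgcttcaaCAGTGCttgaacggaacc
Ftl1, 5′ untranslated region, chr7:45459778-45459807, minus strand: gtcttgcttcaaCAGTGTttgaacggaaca

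Across the 29 genes with a row, 2 were called higher and 7 lower in CDH1+/THY1+ cells, and 20 were not called. Called genes thus made up 31.0% of these 29. Over the authors' deposited table as a whole, the called share was 33.5% of the 19211 genes with an adjusted p, 17.1% higher and 16.4% lower. The adjusted p-values point to 19743 tests, 532 more than the rows analysed here. The background share and the list counts thus cover only part of the comparison. The 532 were worked out as tests with smaller p-values than the rows used for it, so the called share of the whole comparison may be higher. The median log2 fold change of the 29 genes was -0.03, against 0.01 over all genes of the authors' deposited table. The members called higher were the importer gene Slc39a8 and the copper importer gene Slc31a1. Those called lower were the importer genes Slc39a6, Slc39a9 and Slc39a11, the exporter genes Slc30a1 and Slc30a10, the zinc sensor gene Mtf1 and the copper pump gene Atp7a. The metallothionein genes, the transferrin receptor gene and the iron exporter gene were not called.

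**Figure D2:**
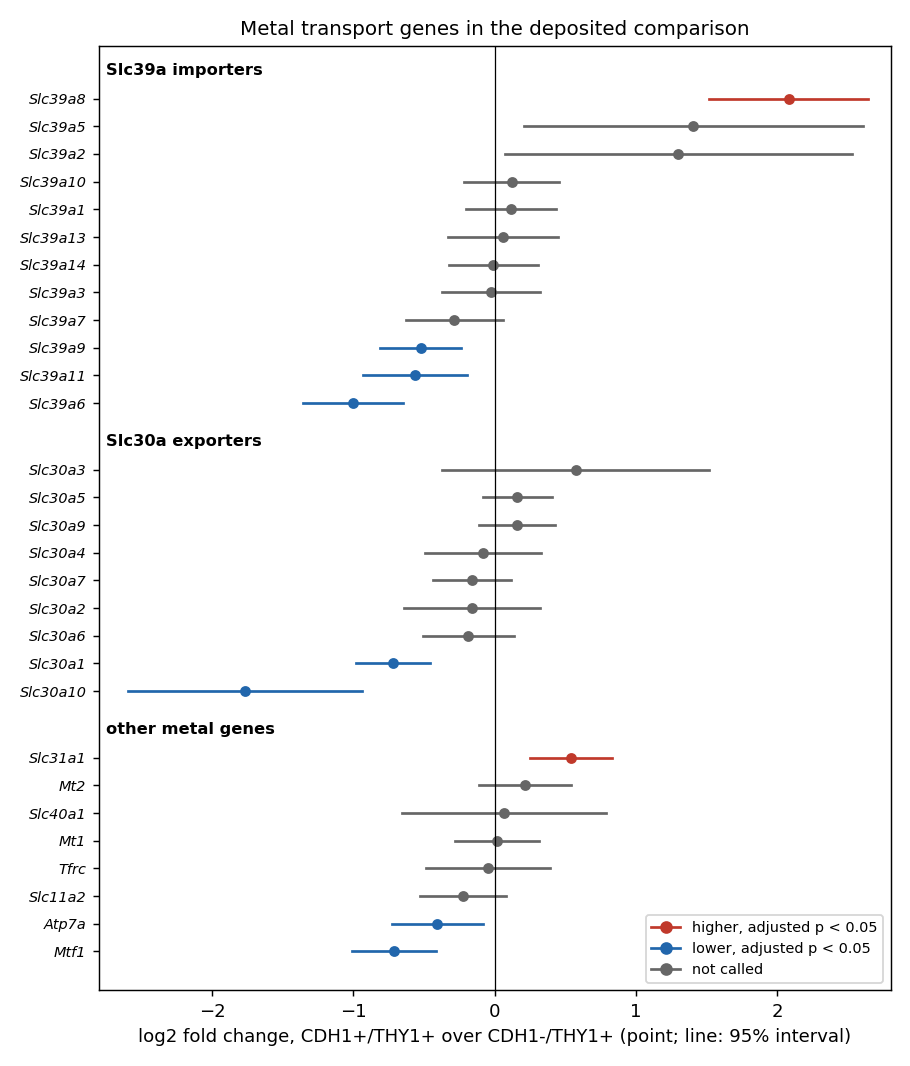
Log2 fold change (above 0: higher in CDH1+/THY1+ cells) of the 29 metal transport genes with a row, by role (points; lines are 95% intervals from the deposited standard errors; red called higher, blue called lower, grey not called). Slc39a8 at 2.08 and Slc30a10 at -1.77 are the outermost genes, and most others lie close to 0.

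Levels between genes were compared as mean normalised count per kb of exon, over all 6 libraries together. The metallothionein genes stood highest, Mt2 at 4795 and Mt1 at 3245 counts per kb, which placed them at percentiles 99.4 and 99.1 of all genes with a symbol. Among the transporters Slc39a1, a zinc importer of the plasma membrane, was highest at 1008 counts per kb, followed by Tfrc at 704 and Slc39a6 at 499. Slc30a4, an exporter into vesicles, was the highest Slc30a gene at 268 counts per kb, close to Slc39a10 at 232 and Slc39a14 at 229. Slc39a8 was rank 25 of 29 at 17.8 counts per kb, and Slc30a10 was rank 27 at 5.11. Slc39a2 and Slc39a5 were last at 1.70 and 1.30. Without values per library the spread of these levels is unknown, and neighbours in this order cannot be told apart.

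**Figure D3:**
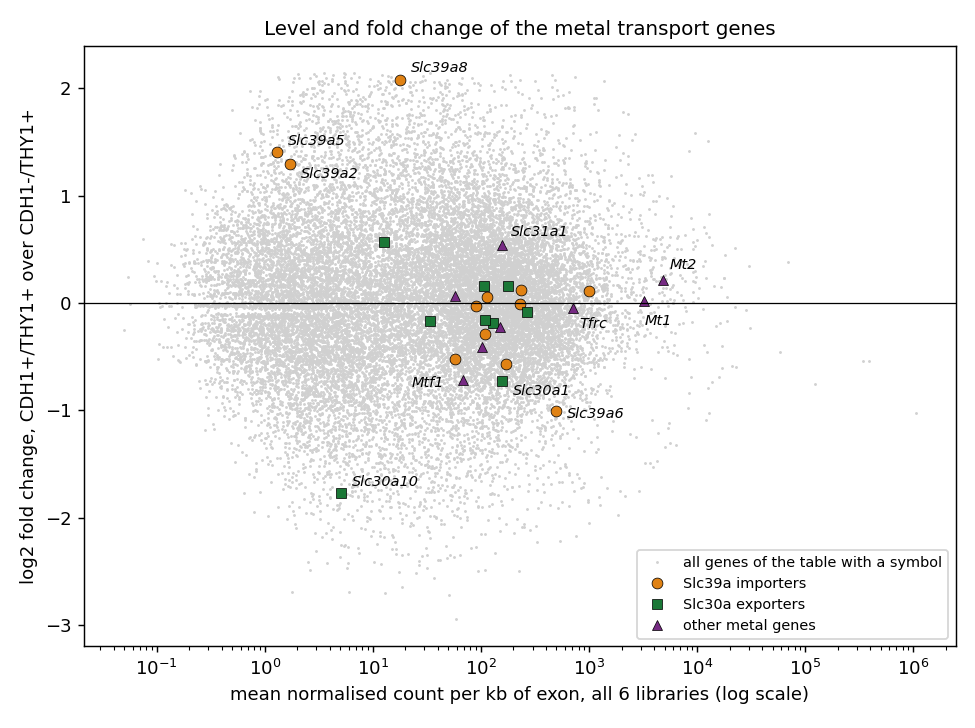
Mean normalised count per kb of exon over all 6 libraries (log scale) against the log2 fold change, for all genes with a symbol (grey) and the 29 metal transport genes by role (orange circles Slc39a, green squares Slc30a, purple triangles others). Mt1 and Mt2 lie far right near a fold change of 0, and Slc39a8 lies at the upper end of the table at a low level of 17.8 counts per kb.

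Of the 12 Slc39a importer genes with a row, 1 was called higher, 3 lower and 8 not called, with a median log2 fold change of 0.02. Called genes made up 33.3% of these 12, against 33.5% of all genes with an adjusted p. At an unadjusted p under 0.05 by DESeq2, 3 were higher and 3 lower, beside 4165 higher and 3842 lower of the 22330 genes with a p-value. Slc39a8 (ZIP8), which carries zinc, manganese, iron and cadmium, had the highest value of the 29 genes with a row. Its log2 fold change in the authors' deposited table was 2.08 ± 0.29 (standard error, adjusted p = 1.72e-11), a 4.23-fold higher level with a 95% interval of 2.86 to 6.24. The rows of the table ended at a log2 value of 2.14, and 30 rows lay above Slc39a8. Genes without a row are not part of that order. Its mean count of 136 was low for the set. The gene lies at 135825279 to 135888572 on chromosome 3. Slc39a14 (ZIP14), its close relative with a like range of metals, stood at -0.01 ± 0.16 in the authors' deposited table with a mean count of 2415.

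Slc39a6 (ZIP6) belongs, like Slc39a8 and Slc39a14, to the LIV-1 subfamily, and its product works in a complex with that of Slc39a10 (ZIP10). It was lower, at -1.002 ± 0.18 in the authors' deposited table (adjusted p = 4.42e-07), which is 49.9% of the level in CDH1-/THY1+ cells. Slc39a10 was at 0.12 ± 0.17 in the authors' deposited table, with a 95% interval from -0.22 to 0.45. The pair therefore had different values, although the difference between them was not tested. Of the 7 LIV-1 genes with a row, 1 was called higher and 1 lower. At an unadjusted p under 0.05 by DESeq2, 2 were higher and 1 lower, beside 4165 higher and 3842 lower of the 22330 genes with a p-value. The called share was 28.6%, and 40.0% in the other Slc39a subfamilies, against 33.5% of all genes with an adjusted p.

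Of the 5 genes of the other Slc39a subfamilies, 2 were called lower and 0 higher, and at an unadjusted p under 0.05 by DESeq2 1 was higher, Slc39a2. Over all 22330 genes with a p-value, 4165 were higher and 3842 lower at that threshold. Slc39a9, whose protein lies in Golgi and plasma membranes, was at -0.52 ± 0.15 (adjusted p = 0.00183), and Slc39a11 at -0.57 ± 0.19 (adjusted p = 0.0102), in the authors' deposited table. With Benjamini-Yekutieli adjustment Slc39a11 was no longer called (adjusted p = 0.136). The plasma membrane importer genes Slc39a1 and Slc39a3 stood at 0.11 ± 0.16 and -0.03 ± 0.18 in the authors' deposited table. The genes of the endoplasmic reticulum and Golgi importers Slc39a7 and Slc39a13, both of the LIV-1 subfamily, stood at -0.29 ± 0.17 and 0.06 ± 0.20 in the authors' deposited table. Of the Slc39a7 exons 80.7% lie within exons of Gm20427 on the same strand, and Gm20427 had a mean count of 1.66 in the authors' deposited table. The level of Slc39a7 is uncertain, since the handling of reads in shared exons was not given in the sources used here.

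Slc39a2 and Slc39a5 rested on few reads, and their reads per library could be worked out from the mean counts in the authors' deposited table. The libraries carry no names, are lettered a to f by falling size factor, and none was assigned to a population. Slc39a2 had 13, 14, 1, 3, 3 and 2 reads in libraries a to f, 36 in all. Slc39a5 had 8, 9, 0, 0, 1 and 0 reads, 18 in all. Libraries a and b thus held 27 of the 36 reads of Slc39a2 and 17 of the 18 reads of Slc39a5. Neither gene was called, with log2 fold changes of 1.30 ± 0.63 (adjusted p = 0.0939) and 1.40 ± 0.61 (adjusted p = 0.0592) by DESeq2 in the authors' deposited table. Slc39a2 shares 4.38% of its exon bases with Mettl17 on the same strand, which had a mean count of 205 in the authors' deposited table. How reads in that stretch were assigned was not given in the sources used here.

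**Figure D4:**
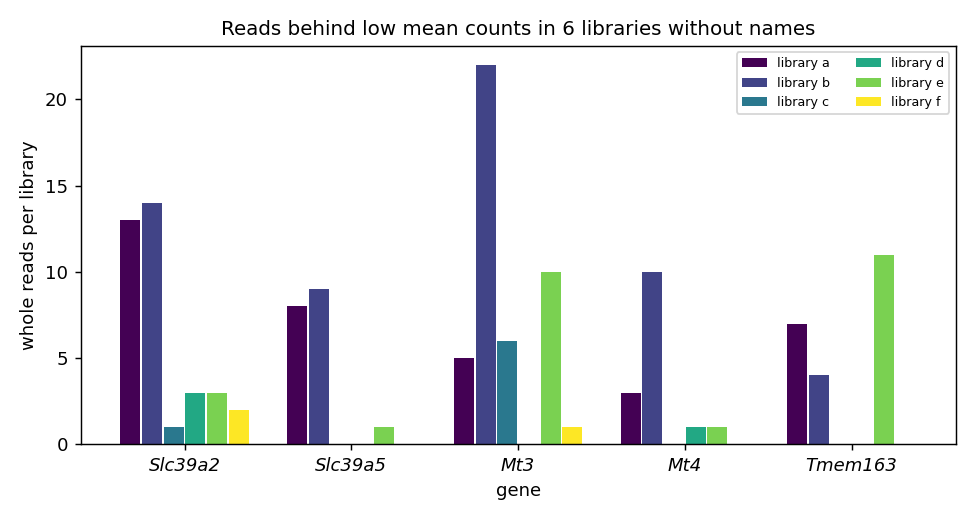
Whole reads in each of 6 unnamed libraries (colours) for Slc39a2, Slc39a5 and the low zinc genes Mt3, Mt4 and Tmem163. Libraries a and b hold most reads of Slc39a2 and Slc39a5, Mt3 and Mt4 have most in library b with 22 and 10, and Tmem163 has most in library e with 11.

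Of the 9 Slc30a exporter genes with a row, 0 were called higher, 2 lower and 7 not called, with a median log2 fold change of -0.16. Called genes made up 22.2% of these 9, against 33.5% of all genes with an adjusted p. At an unadjusted p under 0.05 by DESeq2, 0 were higher and 2 lower, beside 4165 higher and 3842 lower of the 22330 genes with a p-value. Both called genes encode exporters of the plasma membrane. Slc30a1 (ZnT1), the main route of zinc out of the cell, was at -0.72 ± 0.13 in the authors' deposited table (adjusted p = 8.56e-07), or 60.6% of the level in CDH1-/THY1+ cells. Its mean count was 819, and its standard error was low, at percentile 4.50 of the 200 genes nearest in mean count. The gene spans 191906767 to 191913247 on chromosome 1.

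Slc30a10 (ZnT10), which exports manganese, had the lowest value of the 29 genes with a row, -1.77 ± 0.42 in the authors' deposited table (adjusted p = 0.000212, 95% interval -2.60 to -0.94). It was the only called gene of the set with a mean count under 100, at 29.8. Its exons overlap by 9.13% with those of Gm2061 on the opposite strand, which was itself lower at -1.18 ± 0.42 in the authors' deposited table (adjusted p = 0.0172). In that shared stretch the reads of the genes cannot be told apart, since no source used here says whether the counting used strand. Slc30a1 likewise shares 8.92% of its exon bases with 1700034H15Rik on the opposite strand, but that gene had a mean count of 8.12 in the authors' deposited table. Of the other genes called lower, Slc39a9 shares 4.52% of its exon bases with Erh on the opposite strand, which was at 0.02 ± 0.16 in the authors' deposited table, and Mtf1 shares 8.09% with 1110065P20Rik, at 0.14 ± 0.19.

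The exporters into the Golgi and vesicles were not called. Slc30a5 and Slc30a6, which act as a pair in the secretory pathway, stood at 0.16 ± 0.13 and -0.19 ± 0.16 in the authors' deposited table. Slc30a7, of the Golgi, had -0.16 ± 0.14 and Slc30a9, of mitochondria, 0.16 ± 0.14 in the authors' deposited table. Slc30a4 and Slc30a2, of vesicles, stood at -0.08 ± 0.21 and -0.16 ± 0.25 in the authors' deposited table. The synaptic vesicle gene Slc30a3 had few reads, with a mean count of 36.1 and a value of 0.57 ± 0.48 in the authors' deposited table.

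Among the regulators and stores of zinc, Mtf1 was lower, at -0.71 ± 0.15 in the authors' deposited table (adjusted p = 2.64e-05), or 61.0% of the level in CDH1-/THY1+ cells. Its known target Slc30a1 was lower by nearly the same amount, as given above. Its other known targets Mt1 and Mt2 stood at 0.02 ± 0.15 and 0.21 ± 0.17 in the authors' deposited table, and were abundant, at mean counts of 4043 and 2819. The 95% intervals reached from -0.28 to 0.32 for Mt1 and from -0.11 to 0.54 for Mt2. The promoters printed above held 3 cores for Mt1, 4 for Mt2 and 2 for Slc30a1. MTF1 activity and binding were not measured, and their part in these values was not tested. Mt1 and Mt2 have similar coding sequences, and 73.5% of the Mt2 exon bases overlap the antisense gene Gm45774, so reads in shared stretches may have been split or assigned in ways not given in the sources used here.

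Of the 6 further zinc genes listed, 1 was called higher and 0 lower among 5 with an adjusted p. The called share of these 5 was below the 33.5% of all genes with an adjusted p. Tmem163, a vesicular zinc transporter gene, stood at 1.82 ± 0.63 in the authors' deposited table (adjusted p = 0.0148), with a mean count of 3.62. Its reads were 7, 4, 0, 0, 11 and 0 in libraries a to f, so that libraries a, b and e held all 22. With Benjamini-Yekutieli adjustment Tmem163 was no longer called (adjusted p = 0.197). Mt3 and Mt4, the neighbours of Mt1 and Mt2 on chromosome 8, were near the floor of the authors' deposited table, with mean counts of 7.26 and 2.44. Library b held 22 of the 44 reads of Mt3 and 10 of the 15 reads of Mt4.

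None of the 3 iron transport genes of the set was called by DESeq2, and 0 had an unadjusted p under 0.05. Over all 22330 genes with a p-value, 4165 were higher and 3842 lower at that threshold. Tfrc, the receptor that takes up transferrin-bound iron, was abundant with a mean count of 4356 and stood at -0.05 ± 0.22 in the authors' deposited table (95% interval -0.49 to 0.39). Slc11a2 (DMT1), which carries iron out of endosomes, was at -0.22 ± 0.15, and Slc40a1 (ferroportin), the iron exporter, at 0.06 ± 0.37 in the authors' deposited table. The standard errors of Slc40a1 and Tfrc were large for their mean counts, at percentiles 95.5 and 90.0 of the 200 nearest genes. For Slc40a1 the 95% interval ran from -0.66 to 0.78, the widest among the 17 uncalled genes whose mean count reached 100. Of these 17, all had an interval within 2-fold in either direction, and 14 within 1.5-fold.

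Of the 9 transcripts listed as known carriers of an iron-responsive element, 8 had a row. Among these 8, 1 was called higher and 0 lower, with a median of 0.18. The called share was 12.5%, against 33.5% of all genes with an adjusted p. The called gene was Ftl1, the ferritin light chain, at 0.83 ± 0.13 in the authors' deposited table (adjusted p = 8.82e-09). Its partner Fth1, the heavy chain, was not called, at 0.14 ± 0.18 in the authors' deposited table. Both carry a CAGTGN loop, printed above. Tfrc and Slc40a1, which carry the loop too, were not called. Translation was not measured, and any part of the element in these RNA values was not tested.

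Of the 29 further iron genes listed, 25 had a row, and 7 were called higher and 3 lower. Called genes made up 40.0% of these 25, against 33.5% of all genes with an adjusted p. Steap3 and Steap2, reductases that convert ferric to ferrous iron, were higher at 1.27 ± 0.19 and 1.16 ± 0.29 in the authors' deposited table. The mitochondrial iron importer gene Slc25a37 was higher at 1.08 ± 0.19 in the authors' deposited table. The ferroxidase gene Heph was lower at -1.29 ± 0.24, transferrin (Trf) at -1.10 ± 0.28 and the hepatic-type receptor gene Tfr2 at -1.05 ± 0.30 in the authors' deposited table. The iron sensor genes Ireb2, Aco1 and Fbxl5 were not called, with values from -0.17 to -0.01 in the authors' deposited table.

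For copper, the importer gene Slc31a1 (CTR1) was higher, at 0.54 ± 0.15 in the authors' deposited table (adjusted p = 0.00132), a 1.45-fold change with a 95% interval of 1.19 to 1.77. The X-linked Atp7a, a pump that loads copper into the secretory pathway and out of the cell, was lower at -0.41 ± 0.16 in the authors' deposited table (adjusted p = 0.0400). With Benjamini-Yekutieli adjustment it was no longer called (adjusted p = 0.521). Of the 13 further copper genes listed, all had a row, and 6 were called higher and 2 lower, with a median of 0.30. Called genes made up 61.5% of these 13, against 33.5% of all genes with an adjusted p. Atp7b, the other copper pump, was lower at -1.21 ± 0.21 in the authors' deposited table (adjusted p = 2.39e-07). Sco1, which delivers copper to cytochrome oxidase, was higher at 0.96 ± 0.20, the mitochondrial copper chaperone gene Cox17 at 0.72 ± 0.22 and Slc31a2, a relative of Slc31a1, at 0.70 ± 0.21 in the authors' deposited table. With Benjamini-Yekutieli adjustment neither Cox17 (adjusted p = 0.0645) nor Slc31a2 (0.0501) was called. Cox11, of the same delivery route, was lower at -0.73 ± 0.18 in the authors' deposited table.

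Of 4 further manganese genes, 2 were called higher and 0 lower. This share of 50.0% stands beside 33.5% of all genes with an adjusted p. Slc11a1, a metal transporter of macrophage phagosomes, was at 1.33 ± 0.54 (adjusted p = 0.0380) with a mean count of 29.3, and the Golgi gene Tmem165 at 0.39 ± 0.13 (adjusted p = 0.00911) in the authors' deposited table. Macrophage markers with a row were higher in the same comparison, as given above, and their part in the value of Slc11a1 was not tested. Neither Slc11a1 (adjusted p = 0.496) nor Tmem165 (0.123) was called with Benjamini-Yekutieli adjustment. The manganese pump genes Atp2c1 and Atp13a1 were not called, at -0.15 ± 0.12 and -0.23 ± 0.12 in the authors' deposited table.

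**Figure D5:**
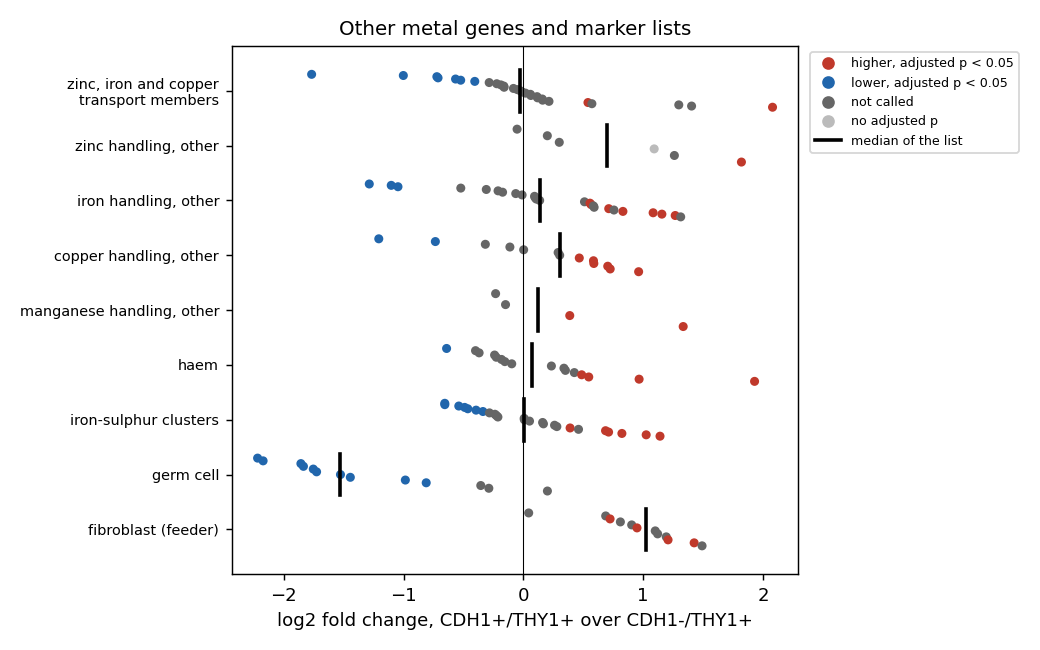
Log2 fold change (above 0: higher in CDH1+/THY1+ cells) of each gene with a row in the metal transport set, in 6 further metal gene lists and in the germ cell and fibroblast marker lists (points; red called higher, blue called lower, grey not called, light grey no adjusted p; bars are medians). The median of the metal transport set is -0.03, against -1.53 for germ cell and 1.02 for fibroblast markers.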

How the data were processed

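Total RNA was sequenced in 6 samples of 2 sorted populations. The submitters' processing notes name DESeq2 1.12.3, R 3.3.1, Subread 1.5.0-p3 with featureCounts, TopHat2 2.1.1, Trimmomatic 0.32 and build GRCm38.p4. The sources used here name no annotation, strand setting or design formula. The authors' deposited mean normalised count is a signal, counts divided by size factors and averaged over all 6 libraries. The authors' deposited log2 fold change and standard error are on the log2 scale, their Wald statistic is a score, and p-values and adjusted p-values are deposited per gene. Standard errors of the authors' deposited table did not exceed 0.639 at any mean count, a sign of shrinkage. Fold changes of genes with few reads may therefore be smaller than they would be without shrinkage.

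Symbols, positions and exon lengths came from GENCODE M21, matched on the Ensembl identifier (22317 of 22432 rows). The members and lists were chosen with earlier results of these data known. Named by rule were members with a mean count of at least 100 or a call, and the 3 highest and 3 lowest called genes of each further list, and for marker lists the called gene farthest from 0. Genes outside that rule (Slc39a2, Slc39a5, Slc30a3, Fth1, Ireb2, Aco1, Fbxl5, Atp2c1, Atp13a1, Mt3, Mt4, Dazl, Ddx4, Col3a1) were chosen after their values were seen, and a gene named by the rule is not reported here. Intervals of 95% are the fold change plus or minus the normal quantile times the deposited standard error, and cover no uncertainty of shrinkage. Each standard error was ranked among the 200 genes nearest in mean count. Each read raises a gene's mean count by a step that is fixed for its library. The 6 steps were found from the 1734 mean counts under 1.6, all of which were then matched by a single set of whole reads to within 3e-09. The adjustments, the motif searches and the recovery of reads were tested on simulated data. Alternatives were Benjamini-Yekutieli and Benjamini-Hochberg adjustment over the 22330 genes that have a p-value, an adjusted p under 0.01, a minimum fold, filters on mean count, and leaving out genes with shared exons, the last chosen after seeing the data. Python 3.11.15, pandas 2.3.3, numpy 2.4.6 and scipy 1.17.1 were used.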

Additional observations from a re-analysis of the deposited data

How the results depend on the processing

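The 2 genes called higher and 7 called lower were also counted under 6 alternatives. Both counts were unchanged with Benjamini-Hochberg adjustment over every gene that has a p-value and with a mean count of at least 10. With Benjamini-Yekutieli adjustment, and likewise with an adjusted p under 0.01, 2 were higher and 5 lower, and Slc39a11 and Atp7a lost their calls under both. With a log2 fold change of at least 1 in size besides the call, 1 was higher (Slc39a8) and 2 lower (Slc39a6 and Slc30a10), by the construction of that alternative. Without the 11 genes that share exon bases with another gene, an alternative chosen after seeing the data, 2 were higher and 3 lower, since Slc39a9, Slc30a1, Slc30a10 and Mtf1 were left out. The share of all genes called under each alternative was not worked out, so these counts have no background beside them. The median log2 fold change, -0.03, was -0.05 with a mean count of at least 10 or of at least 100, -0.04 after subtracting the median of all genes and 0.04, with the sign turned, without the genes with shared exons. No paired analysis was possible because the table holds no values per sample, and for the same reason leaving out each replicate was not run. Depth per library is unknown. Slc39a2 and Slc39a5 rest on 36 and 18 reads, which limits what could be seen in them.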

Other observations

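Haem, the iron-containing group of cytochromes and globins, had 16 of 18 listed genes with a row. Of these, 4 were called higher and 1 lower by DESeq2 in the authors' deposited table, with a median log2 fold change of 0.07. The called share was 31.25%, against 33.5% of all genes with an adjusted p. Flvcr2, a transporter of the plasma membrane related to the haem exporter Flvcr1, was higher at 1.93 ± 0.44 in the authors' deposited table (adjusted p = 9.04e-05). The haem synthesis genes Cpox and Fech, which act late in the pathway, were higher at 0.97 ± 0.19 and 0.55 ± 0.19 in the authors' deposited table, and Fech was no longer called with Benjamini-Yekutieli adjustment (adjusted p = 0.216). Hmox2, the constitutive haem oxygenase gene, was lower at -0.64 ± 0.17 in the authors' deposited table.

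Iron-sulphur clusters, cofactors built in mitochondria and completed in the cytosol, had 25 genes with a row among 29 listed symbols, some of which name the same gene. Of these 25, 6 were called higher and 7 lower, with a median of 0.01. The called share was 52.0%, against 33.5% of all genes with an adjusted p. The electron donor gene Fdxr was higher at 1.14 ± 0.34 and Bola3 at 1.02 ± 0.21 in the authors' deposited table. Lyrm4, a subunit of the assembly complex, was lower at -0.66 ± 0.19, the cochaperone gene Hscb at -0.66 ± 0.16 and Iba57 at -0.54 ± 0.22 in the authors' deposited table. With Benjamini-Yekutieli adjustment neither Fdxr (adjusted p = 0.0553) nor Iba57 (0.579) was called. The genes called in opposite directions thus included members of the same mitochondrial assembly route.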
